A study of Mus musculus with 12 samples.

Results

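The genes described here encode the proteins of the cytosolic ribosome. They were chosen by symbol (*Rpl* or *Rps* followed by a number and, where present, a single a or x, together with *Rplp0*, *Rplp1*, *Rplp2*, *Rpsa*, and *Fau*), with 1 row kept per Ensembl gene, which gave 77 of the 32051 genes in the table. Of these, 31 belong to the small subunit and 46 to the large subunit, and they lie on 20 mouse chromosomes. The rule used no measured value. It leaves out a few genes of cytosolic ribosomal proteins whose symbols have another form, such as *Rps3a1*, which is described at the end with the paralogs.

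RNA-seq was performed on Th9 cells, a CD4+ helper T cell type defined by secretion of IL-9. Naive CD4+ T cells from the spleens of C57BL/6J mice, sex and age matched, were activated with anti-CD3 and anti-CD28 (1 µg/mL) and polarized with IL-4 (10 ng/mL), TGF-β (1 ng/mL), anti-IL-12, and anti-IFN-γ, and RNA was taken on day 4, so that these conditions were shared by every group. The 4 groups had 3 replicates each: vehicle (DMSO), endomelipeptide A (EpA; a cyclic peptide of endophytic fungi, 10 µM), vehicle with fatostatin (DMSO+fato; fatostatin, an inhibitor of the transcription factor SREBP1, 5 µM), and EpA with fatostatin (EpA+fato). The comparisons asked what EpA does to Th9 cells, what fatostatin does to them with and without EpA, and whether the effect of EpA differs when fatostatin is present. The study calls its Th9 samples independent, but neither it nor the labels say whether the replicates came from separate animals or cultures. If they did not, p-values measure only the spread between these samples, which may be technical.

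Cytosolic ribosomes translate nuclear-encoded mRNAs. The small subunit decodes the mRNA, and the large subunit joins amino acids and passes the growing chain through its exit tunnel. The subunits are assembled from near-equal amounts of each protein, and the mRNAs of these proteins begin with a tract of pyrimidines (the 5' terminal oligopyrimidine, or TOP, tract) through which mTORC1 and LARP1 set their translation together. Activated T cells make many ribosomes as they grow and divide, and the ribosomal protein mRNAs are among their most abundant transcripts.

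Each library held 36019740 to 43656682 reads on genes, recovered from the FPKM, and 2879854 to 3371276 of them fell on the 77 genes. T cell genes were high in every library (6 genes, summed at 739.6 to 976 FPKM, higher in the groups without EpA), *Cd4* stood at 78.1 to 92.2 FPKM, and *Il9*, the defining cytokine, at 51.02 to 57.7 FPKM in DMSO and 619.9 to 652 in EpA. The summed markers of other cells were low: 4 B cell genes at 5.97 to 7.88 FPKM in DMSO and 5.19 to 6.21 in EpA, 5 myeloid genes at 1.25 to 1.40 and 1.24 to 1.73, 3 NK cell genes at 4.69 to 5.05 and 2.52 to 3.12, and 2 platelet genes at 0.950 to 1.72 and 2.32 to 3.38. In DMSO+fato and EpA+fato, the B cell genes summed to 7.51 to 8.62 and 6.23 to 6.86, the myeloid genes to 1.57 to 2.34 and 1.73 to 2.71, the NK cell genes to 3.37 to 3.86 and 1.75 to 2.30, and the platelet genes to 1.56 to 2.25 and 2.74 to 3.87. The 2 CD8 T cell genes summed to 8.71 to 9.79 FPKM in DMSO, 7.85 to 8.57 in EpA, 8.55 to 10.2 in DMSO+fato, and 6.98 to 8.60 in EpA+fato, and of these *Cd8a* went from 1.81 ± 0.182 in DMSO to 0.802 ± 0.0328 in EpA (limma adjusted p = 2.85e-05) and *Cd8b1*, the more abundant, stood at 7.60 ± 0.426 and 7.47 ± 0.404 (limma adjusted p = 0.877). The 3 dendritic cell genes summed to 0.150 to 0.281 in DMSO and 0.0952 to 0.146 in EpA (0.122 to 0.165 and 0.0915 to 0.132 with fatostatin), and 3 hemoglobin genes to 1.15 to 1.35 and 0.202 to 1.91 (1.08 to 1.18 and 0.384 to 1.12 with fatostatin). In each of these lists 1 gene, *Siglech* and *Hba-a2*, was listed at 0 in all 12 libraries, but so was the widely used gene *Pdcd2*, so a 0 in this table does not show absence. The part of other cells in the results was not tested. In these bulk samples, fewer cells of a type and less RNA per cell cannot be told apart, and FPKM are relative to the reads of a library, so the amount of ribosomal protein mRNA per cell was not measured.

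A pair of libraries stood apart before any comparison. In replicate 1 of DMSO+fato and replicate 1 of EpA+fato, the ribosomal protein genes were the lowest of their group for 69 of 77 genes in each, and 75 and 71 genes lay below the mean of their group. The FPKM of all genes summed to 280099 and 279720 in these libraries and to 284239 to 286956 in the other 10. Counts and medians of the comparisons that use them are given with and without each.

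Ribosomal protein mRNAs made up 15.4% ± 0.158 (SD, n = 3) of the FPKM of a DMSO library. The median gene stood at 449 FPKM in DMSO, and 50 of the 77 genes were among the 100 highest of all genes. The highest were *Rplp0* (the scaffold protein of the ribosomal stalk) at 2079 ± 37.98 FPKM, *Rps15* (a protein of the small subunit head) at 1936 ± 37.5, and *Rplp1* (a stalk protein) at 1903 ± 53.9. In all, 10 genes exceeded 1000 FPKM, 63 lay between 100 and 1000, and 4 lay below 100. FPKM are per exon length, here the union of all annotated exons of a gene, which ranged from 383 bases (*Rpl36*) to 6270 bases (*Rps15a*), so a gene with long annotated exons outside its main transcript has a lower FPKM by construction.

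The 5 lowest genes were *Rpl24*, *Rps10*, *Rpl13a*, *Rpl21*, and *Rpl34*. *Rpl24* had 1.25, 0.879 and 0.848 FPKM in the DMSO libraries, and *Rps10* had 1.80, 1.84 and 1.87, levels that rest on 34 to 69 and 128 to 235 reads per library. *Rpl13a* had 24.5, 22.99 and 23.4 FPKM. All the other genes had at least 7060 reads in every library. These 3 genes have the largest shares of exon sequence that lies, on the same strand, within exons of another annotated gene: 46.99% for *Rpl24* (Gm28037), 35.4% for *Rpl13a* (mostly Gm45713), and 20.6% for *Rps10* (RPS10-NUDT3). Reads in such overlaps belong to neither gene alone, the handling of these reads is not given in the sources used here, and its part in the low values was not tested.

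Ribosomal protein genes have many near-identical copies, mostly processed pseudogenes, and reads can fall on either. A search of GENCODE transcripts found 632 copies of 70 of the 77 genes (at least 90% identity over at least 80% of the coding sequence), 155 of them at a mean of 1 FPKM or more. The copies held a median of 1.18% of the reads of gene and copies together, more than 10% for 12 genes and more than 50% for 1, *Rps10*. Its processed pseudogene Rps10-ps2 (chr16:20822145-20822640) carried a mean of 508 FPKM and 10345 reads, against 175 reads for *Rps10* itself. Rpl21-ps15 carried 266 FPKM beside 60.995 for *Rpl21*, and Gm9794 carried 1122 beside 541 for *Rpl23*. The stretches below, shown because they are what an aligner has to separate, give 30 bases of each coding sequence, counted from the A of the start codon, with a substitution in capitals (T393C, T336C, and C253T, the base of the gene first).
Rps10, bases 379 to 408: tacagaaggagcgcTgtgccccctggagct
Rps10-ps2: tacagaaggagcgcCgtgccccctggagcc
Rpl21, bases 322 to 351: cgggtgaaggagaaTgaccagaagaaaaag
Rpl21-ps15: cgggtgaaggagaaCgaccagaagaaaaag
Rpl23, bases 239 to 268: tggtaattcgacaaCgaaagtcatatcgaa
Gm9794: tggtaattcgacaaTgaaagtcatatcgaa
The *Rps10* coding sequence differed from that of its copy at 5 of 495 bases, *Rpl21* at 3 of 480, and *Rpl23* at 1 of 420, and the *Rps10* stretch holds 1 further difference, which is not in capitals. The values of these genes are therefore uncertain one by one. *Rps10* itself had 2.16, 2.55 and 2.14 FPKM in EpA (limma adjusted p = 0.109), higher in every replicate than in DMSO, while Rps10-ps2 went from 525 ± 7.05 to 495 ± 6.87 FPKM (log2 fold change -0.086, limma adjusted p = 0.0188). With the reads of the copies added, the *Rps10* level became 118, 120.2 and 119 FPKM in DMSO and 111, 113 and 114 in EpA.

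Letters of the kind found in TOP tracts were looked for in the promoters, which were available from RefSeq (build GRCm38.p6) for 57 of the 77 genes. The letters CTTTC were searched on the strand of the gene only, from 30 bases before to 50 bases after the start, and they were found in 31 of 57 genes (54.4%), against 11.8% of 27025 genes with a promoter. The reverse complement, GAAAG, stood on the gene's strand in 5 of 57 genes (8.77%), against 11.4% of all. The letters CCGGAAG, the core bound by ETS factors, were searched on both strands over 300 bases and found in 23 of 57 genes (40.4%), against 9.93% of all, and the letters of both motifs can share bases. Windows of 30 bases at the starts of 3 genes that were lower with EpA are shown, chosen because the CTTTC (in capitals) lies within the first bases of the transcript.
Rpl28 (chr7:4792955-4792984, plus strand): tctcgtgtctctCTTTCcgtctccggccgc
Rpl18 (chr7:45718062-45718091, plus strand): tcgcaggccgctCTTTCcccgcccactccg
Rps26 (chr10:128626482-128626511, minus strand): ccgccggatcctCTTTCgagtcttggctcc
The match began at base 3 of the transcript in *Rpl28*, at base 4 in *Rpl18*, and at base 8 in *Rps26*. In other genes it lay farther in, as in *Rpl10a* (base 22) and *Rpsa* (base 23), so a match in the window is not in itself a tract at the transcript's end. For EpA against DMSO, 8 of the 31 genes with a match, 3 of the 26 without, and 5 of the 20 with no promoter in the table were called lower (13.1% of all genes), with median log2 fold changes of -0.041, -0.028, and -0.048. For EpA+fato against DMSO+fato the counts were 7, 6, and 5 (13.3% of all genes) and the medians -0.045, -0.04, and -0.067, so no contrast by match stood in both. A match describes these letters in this window and no more.

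With EpA, ribosomal protein mRNAs took a slightly smaller share of the library, and most of the genes that passed the test fell. The 77 genes made up 15.59%, 15.27% and 15.42% of the FPKM of the DMSO libraries and 14.91%, 15.14% and 14.86% of the EpA libraries, so the groups did not overlap. As a share of reads on genes, the values were 7.995%, 7.79% and 7.88% in DMSO and 7.605%, 7.74% and 7.63% in EpA. Of the 77 genes, 60 had a negative log2 fold change and 17 a positive one (all genes 49.3% and 50.6%), and the median was -0.039, a change of -2.70%, where the median of all 13733 tested genes was 0.0023. The lowest fold change belonged to *Rpl37* and no gene passed the test with a change of 1.2-fold, which 5.68% of all genes did as lower and 5.2% as higher.

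**Figure D1:**
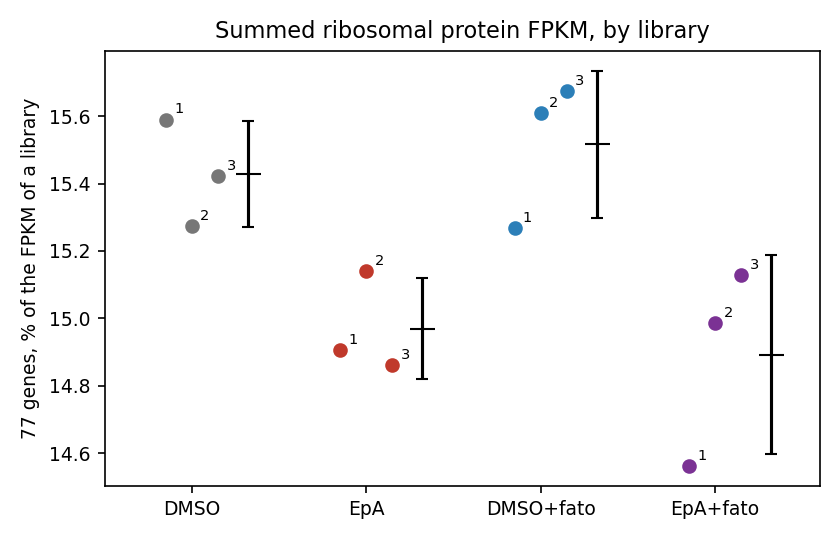
Share of the FPKM of each library that fell on the 77 ribosomal protein genes, in percent (the axis does not start at 0). Points are libraries with their replicate number, and bars give the mean ± SD of 3. The highest library with EpA lies at 15.14% and the lowest without it at 15.27%.

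By limma with Benjamini-Hochberg adjustment over all tested genes, 16 genes fell (20.8%) and 1 rose (1.3%), against a background of 13.1% of all genes lower and 14.3% higher. The groups did not overlap for 29 genes that were lower (37.7%, all genes 20.8%) and for 5 that were higher (6.49%, all genes 21.7%). Of the 357 other genes that averaged 100 FPKM or more, 90 were lower and 117 higher. The ribosomal protein genes thus fell at a share between that of all genes and that of other abundant genes, and rose at a lower share than either, which is a description and was not tested. The count of 16 rested in part on single libraries, since 10 genes fell without replicate 3 of DMSO and 10 without replicate 1 of EpA. The count over all genes dropped too, from 1801 lower to 1433 and 1472. The spread between replicates, as the residual SD of log2 values, had a median of 0.0446 for the ribosomal protein genes and 0.0271 for the other abundant genes. In both subunits more genes fell than rose: 10 small subunit genes fell and 1 rose, with a median log2 fold change of -0.069 over 31, and 6 large subunit genes fell and 0 rose, with a median of -0.03 over 46.

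**Figure D2:**
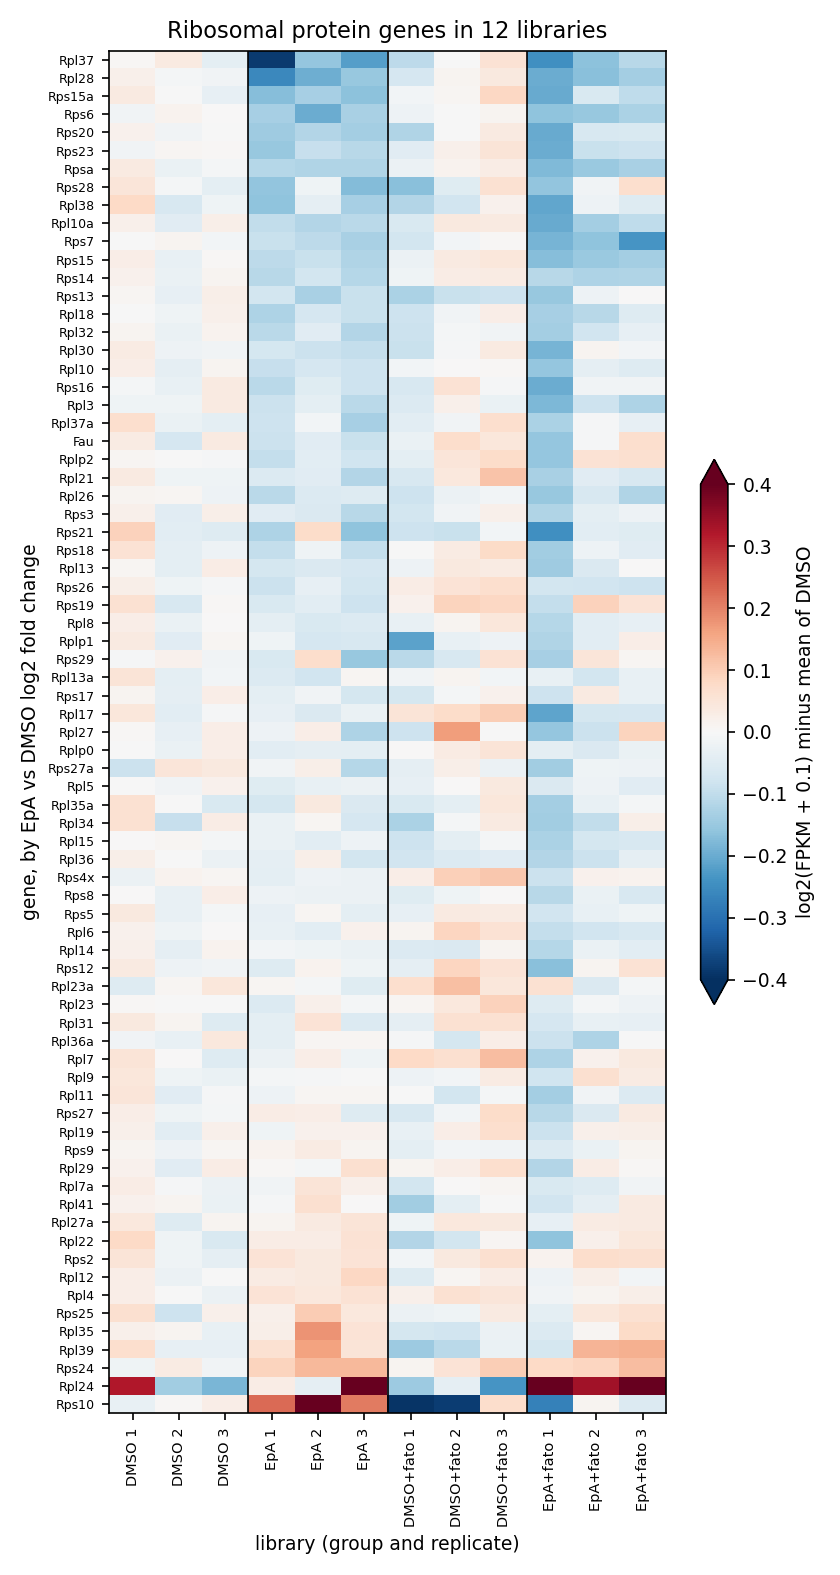
Difference of log2(FPKM + 0.1) in each of the 12 libraries from the mean of DMSO, for 75 of the 77 genes ordered by the fold change of EpA against DMSO; colors stop at -0.4 and 0.4, which *Rps10* and *Rpl24* exceed. The upper rows are blue in the EpA and EpA+fato columns, the lower rows pale to red, and replicate 1 of EpA+fato is the darkest blue column.

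*Rps6* (ENSMUSG00000028495, chr4:86854660-86857412, minus strand), the small subunit protein that S6 kinases phosphorylate downstream of mTORC1, had 1102, 1124 and 1114 FPKM in DMSO and 1016, 970.3 and 1018 in EpA. Every EpA library lay below every DMSO library. The log2 fold change was -0.15 ± 0.021 (SE), a change of -10.1%, with a limma adjusted p of 2.54e-04, the smallest of the 77 genes. *Rpl28* (ENSMUSG00000030432, chr7:4792874-4795066, plus strand), a large subunit protein, had 491, 482 and 479.7 FPKM in DMSO and 405, 423 and 436 in EpA (log2 fold change -0.20 ± 0.032, limma adjusted p = 7.07e-04). *Rpl37* (ENSMUSG00000041841, chr15:5116645-5119140, plus strand), another large subunit protein, had 328, 336 and 319 FPKM in DMSO and 251, 294 and 281 in EpA (log2 fold change -0.25 ± 0.058, limma adjusted p = 0.00693), and its EpA replicates spread more widely than those of *Rps6*. *Rps15a* went from 121 ± 2.87 to 108 ± 1.504 FPKM (SD, n = 3), with a log2 fold change of -0.16 ± 0.035 and a limma adjusted p of 0.00675. Among the other genes that fell were *Rps20*, *Rps23*, *Rpsa*, *Rpl10a*, *Rps7*, *Rps15*, *Rps14*, *Rpl18*, *Rpl32*, and *Rps26*, by 0.065 to 0.13 on the log2 scale. Of these, *Rpl32* lost its call in 12 of 25 alternative settings (adjusted p up to 0.150), *Rpl18*, *Rps20*, and *Rps26* in 8 each, *Rpl10a* in 6, and *Rps23* in 3, while *Rpsa*, *Rps7*, *Rps15*, and *Rps14* kept theirs in all 25.

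*Rps24* (ENSMUSG00000025290, chr14:24487125-24496959, plus strand), a small subunit protein needed to process the precursor of 18S rRNA, was the gene that rose. It had 234, 242 and 234 FPKM in DMSO and 252, 259 and 259 in EpA, without overlap (log2 fold change 0.12 ± 0.025, limma adjusted p = 0.00459). It is 1 of 17 genes listed as mutated in Diamond-Blackfan anemia, a failure of red cell production, of which 3 fell (*Rps7*, *Rps26*, and *Rpl18*) and 13 did not pass the test. The 3 of 17 lie near the 13.1% of all genes called lower, and the calls of *Rps26* and *Rpl18* were each lost in 8 of 25 alternative settings. *Rps19*, the gene of that list most often mutated, had 155, 142 and 149 FPKM in DMSO and 142, 144 and 140.1 in EpA (limma adjusted p = 0.361), and its groups overlapped.

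**Figure D3:**
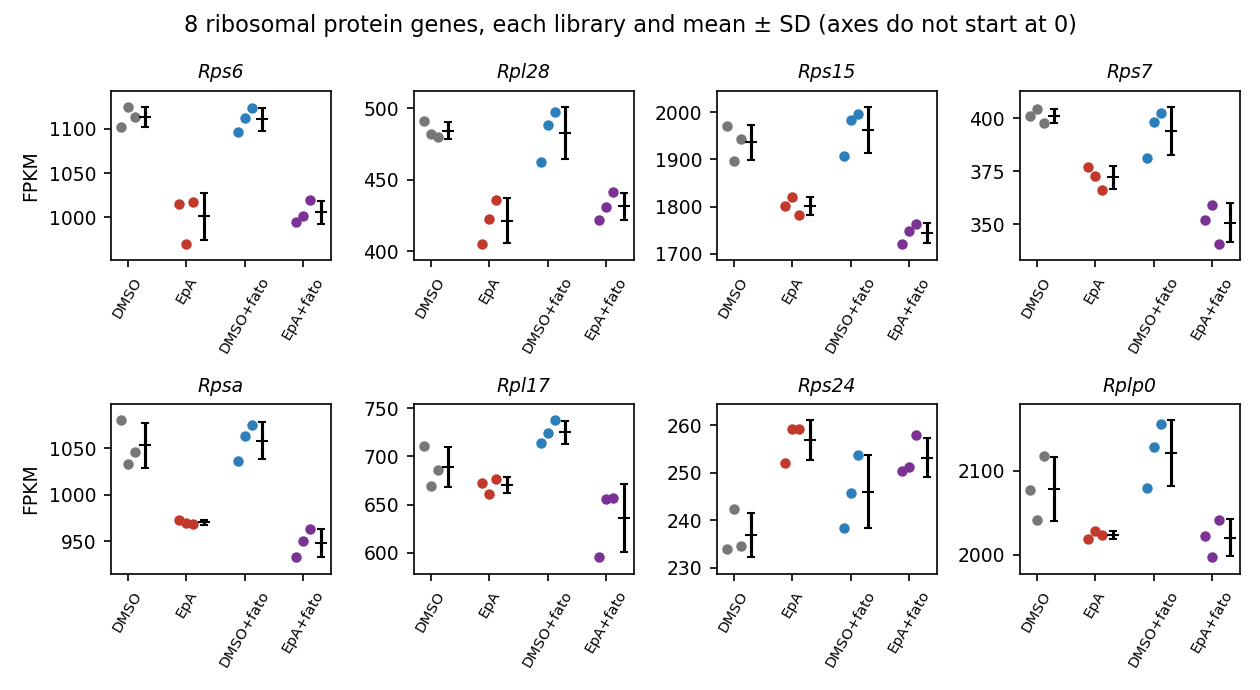
FPKM of 8 ribosomal protein genes in each library (points) with the mean ± SD of 3 replicates (bars); the axes differ and do not start at 0. *Rps6*, *Rpl28*, *Rps15*, *Rps7*, and *Rpsa* are lower in both groups with EpA, *Rps24* is highest in EpA, and *Rpl17* is lowest in EpA+fato.

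By role, 2 of the 3 listed genes at the mRNA exit and the laminin receptor gene fell (13.1% of all genes, and 90 of the 357 other abundant genes, were called lower), counts too small to set these roles apart. The stalk, the 5S particle, and the mRNA entry had no gene that passed by limma. *Rpsa*, which encodes the ribosomal protein also known as the laminin receptor, had 1080.1, 1033 and 1047 FPKM in DMSO and 973, 969 and 968 in EpA, and the EpA replicates lay within a few FPKM of each other (log2 fold change -0.12 ± 0.021, limma adjusted p = 0.00156). At the mRNA exit, *Rps14* went from 517 ± 8.37 to 482 ± 7.97 FPKM (limma adjusted p = 0.0026) and *Rps26* from 938 ± 13.7 to 897 ± 17.1 (limma adjusted p = 0.0224), and *Rps28* had 151, 145 and 142 and 131, 144 and 129.5 FPKM with overlap (limma adjusted p = 0.236). At the mRNA entry, *Rps2* stood at 1733 ± 56.3 and 1793 ± 11.1 FPKM and *Rps3* at 391 ± 10.7 and 372 ± 8.89.

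The stalk binds the translation factors that hydrolyze GTP. *Rplp0* had 2078, 2041 and 2117 FPKM in DMSO and 2019, 2028 and 2023 in EpA, which did not overlap but did not pass the test (limma adjusted p = 0.169). Its partners *Rplp1* (1903 ± 53.9 and 1838 ± 36.6 FPKM), *Rplp2* (202 ± 0.937 and 192 ± 3.61), and *Rpl12*, at the stalk base (312 ± 5.48 and 324 ± 5.87), did not pass either. *Rpl5* and *Rpl11*, which join 5S rRNA and bind MDM2 when assembly fails, stood at 422 ± 4.85 and 412 ± 3.64 and at 308 ± 10.1 and 308 ± 3.34 FPKM. In the exit tunnel, *Rpl4* had 1415, 1387 and 1367 FPKM in DMSO and 1444, 1429 and 1448 in EpA, all higher in EpA (limma adjusted p = 0.0576), *Rpl17* stood at 689 ± 20.7 and 670.0 ± 8.20, and *Rpl39* at 242 ± 9.97 and 258 ± 11.004. None of the 6 listed genes around the exit port (*Rpl19*, *Rpl22*, *Rpl23a*, *Rpl26*, *Rpl31*, and *Rpl35*) passed the test by limma, and 1 of them had an unadjusted p below 0.05.

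Among the single genes of interest, *Rpl22*, which is needed for the development of alpha-beta T cells, stood at 142 ± 7.23 FPKM in DMSO and 145 ± 1.66 in EpA. *Rpl38*, known for selective translation of Hox mRNAs, stood at 367 ± 18.9 and 339.8 ± 15.8, *Rpl41*, which encodes the shortest ribosomal protein, at 1397 ± 22.3 and 1418 ± 37.5, and the X-linked *Rps4x* at 1404 ± 18.5 and 1379 ± 9.13. The ubiquitin fusion gene *Rps27a* stood at 444 ± 22.6 and 433 ± 21.4 and the ubiquitin-like fusion gene *Fau* at 362 ± 14.7 and 344 ± 5.81. For these 6 genes the groups overlapped and the test was not passed (limma adjusted p of 0.18 to 0.739).

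With fatostatin alone, no ribosomal protein gene passed the test. They made up 15.59%, 15.27% and 15.42% of the FPKM in DMSO and 15.27%, 15.61% and 15.67% in DMSO+fato, and the groups overlapped. By limma, 0 of 77 genes passed in either direction, against 7.69% of all genes higher and 6.31% lower. At an unadjusted p below 0.05 there were 7 genes (26.8% of all genes), and voom on the recovered reads called 4 higher and 1 lower (of all 13728 genes it tested, 1287 higher and 1009 lower). Over the 77 genes the median log2 change was -0.0035 (all genes 0.0053), with 34 genes positive and 43 negative (51.9% and 48.1% of all genes), and this sign turned to 0.0023 with FPKM scaled to equal sums, where 3 genes passed as higher. It also turned without replicate 1 of DMSO+fato (median 0.017, 53 genes positive, 1 passed as higher) and without replicate 1 of DMSO (median 0.012). The 357 other abundant genes had a median of -0.019, with 140 positive and 217 negative, and 37 were called higher and 70 lower. The groups did not overlap for 6 genes that were higher (7.79%, all genes 16.5%), namely *Rpl17*, *Rpl23*, *Rpl23a*, *Rpl7*, *Rps26*, and *Rps4x*, and for 2 that were lower (2.6%, all genes 14.8%), *Rpl36* and *Rps13*. *Rps4x*, for example, had 1383, 1417 and 1413 FPKM in DMSO and 1429.8, 1499.5 and 1514 in DMSO+fato.

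With EpA present, adding fatostatin was followed by a fall of 1 gene. The share of FPKM was 14.91%, 15.14% and 14.86% in EpA and 14.56%, 14.99% and 15.13% in EpA+fato. By limma, 1 gene fell and 0 rose, against 6.79% of all genes lower and 9.22% higher. At an unadjusted p below 0.05 there were 7 genes (all genes 28.7%), and voom called 0 higher and 6 lower (of all 13728 genes it tested, 1593 higher and 1059 lower). Over the 77 genes the median log2 change stood at -0.013 (all genes 0.015), with 27 positive and 50 negative (54.3% and 45.6% of all genes), and it was -0.031 with median ratio scaling (14 positive, 63 negative) and -0.0045 with FPKM scaled to equal sums (35 and 42). The 357 other abundant genes had a median of -0.024, with 136 positive and 221 negative, and 30 were called higher and 98 lower. The gene that fell was *Rps7*, which helps process rRNA and can bind MDM2, with 377, 373 and 366 FPKM in EpA and 352, 359 and 341 in EpA+fato (log2 fold change -0.086 ± 0.024, limma adjusted p = 0.034). Its call was lost in 8 of 25 alternative settings, in which the adjusted p reached 0.136. Among these were the fits without replicate 1 or 2 of EpA and without replicate 1 or 3 of EpA+fato. They also include the fits with only the groups compared and with no intensity trend. Without replicate 1 of EpA+fato, 3 genes rose and 0 fell (of all genes, 977 and 734). The median was then 0.013, so the sign of the median in this comparison rested on that library. The groups did not overlap for 11 genes that were lower (14.3%, all genes 14.4%) and for 0 that were higher (all genes 18.9%).

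The difference between EpA and its control was again downward when fatostatin was present. The share of FPKM was 15.27%, 15.61% and 15.67% in DMSO+fato and 14.56%, 14.99% and 15.13% in EpA+fato, without overlap. Of the 77 genes, 62 had a negative and 15 a positive log2 fold change (47.2% and 52.8% of all genes), with a median of -0.051 (a change of -3.50%, all genes 0.012). By limma, 18 genes fell (23.4%) and 1 rose (1.3%), against 13.3% of all genes lower and 16.2% higher and 107 lower and 112 higher of the 357 other abundant genes. Groups did not overlap for 24 genes that were lower (31.2%, all genes 19.0%) and 1 that was higher (1.3%, all genes 22.5%). Without replicate 1 of EpA+fato, 16 genes fell and 2 rose (of all genes, 1668 and 1972), and the median moved to -0.023. Without replicate 1 of DMSO+fato, 26 fell and 0 rose (of all genes, 1601 and 1964), and the median was -0.075. Voom on recovered reads called 31 genes lower and 1 higher (of all 13728 genes it tested, 2076 lower and 2434 higher). FPKM scaled to totals without the 77 genes gave 29 lower and 2 higher (of all 13733 genes, 1923 and 2073).

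**Figure D4:**
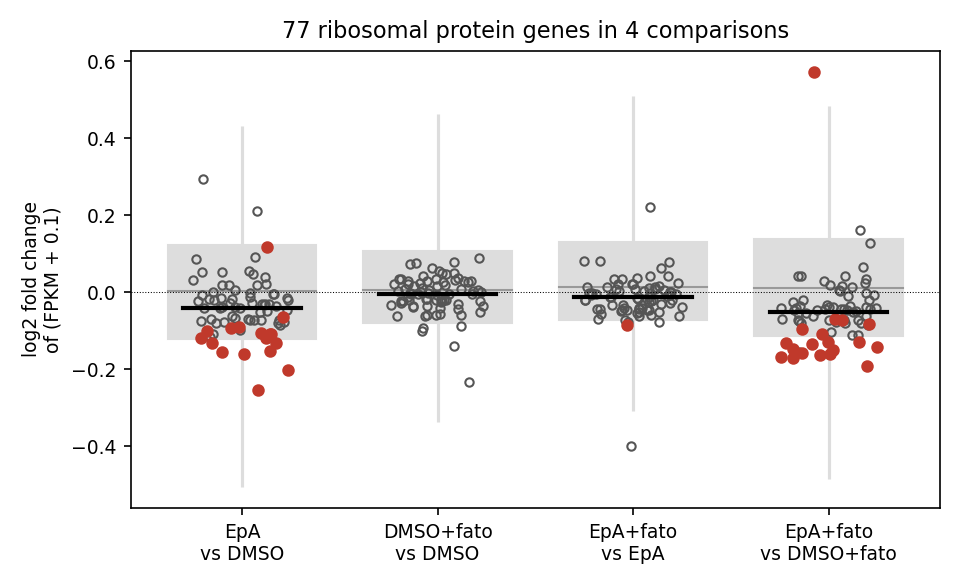
Log2 fold changes of (FPKM + 0.1) of the 77 genes in 4 comparisons. Filled points passed an adjusted p of 0.05, the black bar is the median of the 77 genes, and the gray box, gray bar, and line show the interquartile range, the median, and the outer percentiles (5 to 95) of all 13733 tested genes. The medians of the 77 genes lie below those of all genes in all 4 comparisons. Not drawn are the medians of the 357 other abundant genes, 0.0047, -0.019, -0.024, and 0.00062 in the same order. In the 2 comparisons of fatostatin these lie below the medians of the 77 genes.

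*Rps15* (ENSMUSG00000063457, chr10:80292453-80294114, plus strand) had 1907, 1983 and 1997 FPKM in DMSO+fato and 1721, 1748 and 1763 in EpA+fato (log2 fold change -0.17 ± 0.022, limma adjusted p = 1.57e-04). *Rps7* (ENSMUSG00000061477, chr12:28630854-28635953, minus strand) had 381, 398 and 403 and 352, 359 and 341 FPKM (log2 fold change -0.17 ± 0.024, limma adjusted p = 3.51e-04). In both genes every library with EpA lay below every library without it, as in DMSO and EpA, where *Rps15* had 1970.2, 1896 and 1943 and 1800.4, 1819.5 and 1783 FPKM and *Rps7* had 401, 404 and 398 and 377, 373 and 366. *Rpl17* (ENSMUSG00000062328, chr18:74998558-75003381, plus strand), whose protein lines the exit tunnel, had 714, 724 and 737 FPKM in DMSO+fato and 595, 656 and 657 in EpA+fato (log2 fold change -0.19 ± 0.036, limma adjusted p = 0.00201). Its low replicate 1 of EpA+fato is 1 of the libraries that stood apart, and copies held 16.5% of its reads. *Rps6* had 1097, 1112 and 1123 and 995, 1002 and 1020.1 FPKM (log2 fold change -0.14 ± 0.021, limma adjusted p = 3.78e-04), and *Rpl28* had 462, 488 and 497 and 422, 431 and 441 (log2 fold change -0.16 ± 0.032). Both were lower without overlap.

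The stalk gene *Rplp0* fell in this comparison, from 2121 ± 38.9 to 2020.4 ± 22.1 FPKM (log2 fold change -0.07 ± 0.019, limma adjusted p = 0.0177), as did the X-linked *Rps4x*, from 1481 ± 45.1 to 1387 ± 54.6 (log2 fold change -0.095 ± 0.029, limma adjusted p = 0.0298). Each lost its call in 6 of 25 alternative settings. *Rpsa* went from 1058 ± 19.9 to 948 ± 15.2 FPKM, *Rps14* from 523 ± 10.02 to 476 ± 1.94, and *Rps26* from 971 ± 12.9 to 888 ± 2.48, with limma adjusted p-values of 1.91e-04, 3.28e-04, and 3.40e-04. Genes that also fell were *Rpl6*, *Rpl3*, *Rpl23*, *Rpl10a*, *Rps15a*, and *Rps23*, of which *Rpl23* lost its call in 13 of 25 alternative settings (adjusted p up to 0.158), which include adding the reads of its copies, and *Rpl3* in 3 (adjusted p up to 0.0725), which include leaving out replicate 1 of EpA+fato or replicate 2 of DMSO+fato. *Rps23* lost it in 1, with only the groups compared (adjusted p = 0.0561). The gene that rose was *Rpl24*, with 0.875, 0.950 and 0.815 FPKM in DMSO+fato and 1.33, 1.26 and 1.49 in EpA+fato, the one change of more than 1.2-fold, a size that 6.67% of all genes passed as higher and 5.62% as lower (log2 fold change 0.57 ± 0.18, limma adjusted p = 0.0353). It rests on 40, 39 and 34 reads against 58, 54 and 63 reads, and its call was lost in 11 of 25 alternative settings. These include leaving out any single library of DMSO+fato or EpA+fato, voom, and adding the reads of its copies. *Rps24* did not pass (limma adjusted p = 0.24), with 238, 246 and 254 and 250.5, 251 and 258 FPKM.

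Other genes described above did not pass in this comparison either. *Rplp1* stood at 1793 ± 134 FPKM in DMSO+fato and 1844 ± 94.003 in EpA+fato, *Rplp2* at 206 ± 8.26 and 201 ± 16.7, and *Rpl12* at 311 ± 8.66 and 312 ± 5.11. The differences of these stalk genes were smaller than the larger SD. The 5S particle genes *Rpl5* and *Rpl11* stood at 423 ± 10.7 and 410.2 ± 5.81 and at 302 ± 8.54 and 294 ± 12.3 FPKM. *Rpl39*, a short protein of the exit tunnel, had 219, 225 and 238 FPKM in DMSO+fato and 230.5, 266 and 267 in EpA+fato (limma adjusted p = 0.052), with overlap by replicate 1 of EpA+fato. *Rpl22* stood at 136 ± 5.90 and 139 ± 10.6, *Rpl38* at 352 ± 16.7 and 344 ± 23.5, *Rpl41* at 1342 ± 66.3 and 1374 ± 54.9, and *Rps19* at 155 ± 4.28 and 150.4 ± 10.1. Each of these 4 genes had overlapping groups. Of the mRNA entry and exit genes, *Rps2* stood at 1770.1 ± 45.3 and 1794 ± 39.1, *Rps3* at 385 ± 12.6 and 375 ± 13.5, and *Rps28* at 141 ± 11.3 and 143 ± 11.2. *Rps27a* stood at 439.9 ± 9.26 and 426 ± 20.2, *Fau* at 369.9 ± 12.5 and 355 ± 27.3, and *Rpl4* at 1432 ± 19.8 and 1397 ± 18.6.

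The same 12 genes fell in both comparisons of EpA with its control. The group means of the comparisons share no library, but the fit estimates 1 spread per gene over all 12 libraries, so the calls are not drawn from separate libraries. With each comparison fitted on its own groups only, 21 genes were lower without fatostatin and 13 with it (of all 13733 tested genes, 1655 and 1502). Of the 16 genes that fell without fatostatin and the 18 that fell with it, these 12 make up 75% of the first list and 66.7% of the second. Over all tested genes, 1279 of the 1801 called lower without fatostatin were also called lower with it (71.02%), so the share among ribosomal protein genes is near that of all genes. Across the 77 genes, the 2 sets of log2 fold changes had a Pearson r of 0.716 and a Spearman rho of 0.636, and r was 0.677 without *Rps10* and *Rpl24* and 0.481 over all tested genes, which are values across genes and not across independent replicates. The genes that fell in both included *Rpl10a*, *Rpl28*, *Rps6*, *Rps7*, *Rps14*, *Rps15*, *Rps15a*, *Rps23*, *Rps26*, and *Rpsa*, and 9 of the 12 belong to the small subunit.

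**Figure D5:**
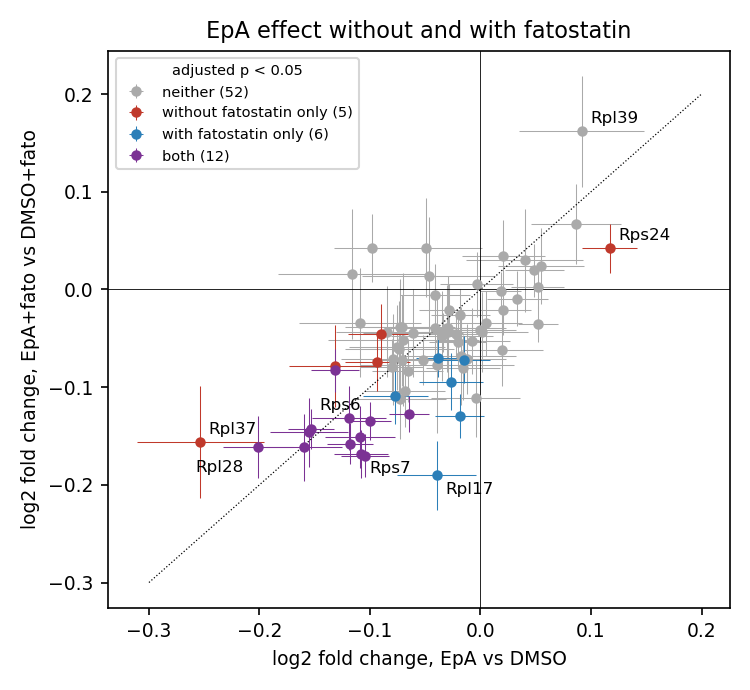
Log2 fold change of EpA against DMSO (x) and of EpA+fato against DMSO+fato (y) for 75 genes, without *Rps10* and *Rpl24*, with standard errors and the line of equal effects (dotted). Colors mark which test was passed, and the 12 genes that passed both lie in the lower left.

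The difference between both effects of EpA was tested directly as an interaction. By limma, 0 of 77 genes passed, against 0.0364% of all genes higher and 0.00728% lower, voom also called 0, and 5 genes had an unadjusted p below 0.05 (all genes 7.89%). By sign, 29 differences were positive and 48 negative (53.9% and 46.1% of all genes). The 5 genes of unadjusted p below 0.05 were *Rpl6* (difference -0.11 ± 0.032), *Rpl4* (-0.088 ± 0.026), *Rpl17* (-0.15 ± 0.051), *Rps13* (0.14 ± 0.049), and *Rps26* (-0.063 ± 0.026), each on the log2 scale with its SE, with limma adjusted p-values of 0.369 to 0.586. The median difference was -0.014, and it was 0.014 without replicate 1 of EpA+fato and -0.034 without replicate 1 of DMSO+fato, with 0 and 0 genes passing. A difference below the threshold does not show that the effects were equal.

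Other genes of the translation machinery did not follow one direction. Of 20 further mRNAs with TOP tracts, for translation factors and their partners, 8 were higher and 5 lower with EpA (median log2 fold change 0.004), and 5 and 4 with EpA+fato against DMSO+fato. The shares of all genes were 14.3% higher and 13.1% lower in the first comparison and 16.2% higher and 13.3% lower in the second, and of the 357 other abundant genes 117 and 112 were higher and 90 and 107 lower. *Eef1a1*, the elongation factor that brings tRNA to the ribosome, went from 5055 ± 40.7 to 4365 ± 22.4 FPKM (log2 fold change -0.21 ± 0.018, limma adjusted p = 7.88e-06), and *Eif3k*, a subunit of initiation factor eIF3, fell as well (log2 fold change -0.13 ± 0.026, limma adjusted p = 0.00347). *Npm1*, a nucleolar protein of ribosome assembly, went from 777 ± 17.6 to 969 ± 10.97 (log2 fold change 0.32 ± 0.022, limma adjusted p = 1.99e-06), and *Btf3*, of the nascent chain complex, rose by a log2 fold change of 0.12 ± 0.033 (limma adjusted p = 0.0164). With fatostatin alone, 0 of the 20 rose and 3 fell (all genes 7.69% higher and 6.31% lower, and 70 of the 357 abundant genes lower), and with EpA+fato against EpA, 0 rose and 6 fell (all genes 9.22% higher and 6.79% lower, and 98 of the 357 lower).

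Dedicated chaperones escort single ribosomal proteins from their synthesis to the nucleus. Of 5 tested, 3 rose and 0 fell with EpA (median log2 fold change 0.14), and 5 were higher with EpA+fato against DMSO+fato, where the shares of all genes were 14.3% higher and 13.1% lower and 16.2% higher and 13.3% lower. The largest changes with EpA were those of *Bccip*, the chaperone of Rpl23 (log2 fold change 0.23 ± 0.037, limma adjusted p = 6.99e-04), and *Tsr2*, the chaperone of Rps26 (0.17 ± 0.047, limma adjusted p = 0.0207). Of 10 genes that set TOP mRNA translation, 4 rose and 2 fell with EpA (all genes 14.3% higher and 13.1% lower; median log2 fold change 0.084), and those named here were chosen after their values were seen. *Eif4ebp1*, which holds back cap-dependent initiation when mTORC1 is off, rose by a log2 fold change of 0.30 ± 0.04 (limma adjusted p = 2.40e-04), *Larp4* by 0.21 ± 0.036 (limma adjusted p = 0.00109), *Eif4e*, the cap-binding protein, by 0.17 ± 0.035 (limma adjusted p = 0.00419), and *Larp1*, which binds the TOP tract, by 0.12 ± 0.019 (limma adjusted p = 6.24e-04). *Rps6kb2*, an S6 kinase, and *Eif4ebp2* fell, with log2 fold changes of -0.20 ± 0.043 and -0.065 ± 0.019 (limma adjusted p of 0.00482 and 0.0263). With fatostatin alone, 0 chaperones and 0 regulators rose by limma, while 2 of each fell (*Grwd1*, *Heatr3*, *Eif4ebp1*, and *Eif4e*), against shares of all genes of 7.69% higher and 6.31% lower. Of 5 noncoding RNAs with TOP tracts, *Snhg6* was higher in EpA than in DMSO (log2 fold change 0.30 ± 0.061, limma adjusted p = 0.0039) and *Gas5* lower (-0.081 ± 0.026, limma adjusted p = 0.0415). The shares of all genes were 14.3% higher and 13.1% lower. In DMSO+fato against DMSO, 0 of the 5 were called higher and 1 lower, *Snhg5* (-0.27 ± 0.041, limma adjusted p = 0.00106), against 7.69% and 6.31% of all genes.

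Among 8 tested paralogs and ribosomal protein genes that the symbol rule leaves out, 2 were higher and 0 lower with EpA (all genes 14.3% higher and 13.1% lower). *Rps27l*, a p53 target that resembles *Rps27*, had 186 to 201 FPKM in DMSO and 232 to 239.6 in EpA (log2 fold change 0.29 ± 0.045, limma adjusted p = 7.01e-04), while *Rps27* stood at 298 ± 5.12 and 299 ± 9.62. *Rpl7l1* had 47.4 to 49.6 FPKM in DMSO and 58.2 to 60.2 in EpA (log2 fold change 0.28 ± 0.023, limma adjusted p = 6.57e-06), while *Rpl7* stood at 723 ± 25.5 and 721 ± 13.99. *Rps3a1*, a core protein of the small subunit, stood at 2117 ± 27.1 and 2019 ± 17.5 (limma adjusted p = 0.0578). *Rpl22l1*, the paralog of *Rpl22*, stood at 40.8 ± 2.93 and 38.2 ± 1.62 (limma adjusted p = 0.25).

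Among 10221 genes outside the set that averaged 1 FPKM or more, the 5 whose log2 values followed the median of the ribosomal protein genes most closely over the 12 libraries were *Lsm6* (Pearson r = 0.943), *Haus3* (0.936), *Hexa* (0.928), and the copies Rpl3-ps1 (0.926) and Rpl17-ps3 (0.921). The points share the groups and the scaling of each library. The 155 copies at a mean of 1 FPKM or more had a median log2 fold change of -0.042 for EpA against DMSO, with 103 negative and 52 positive and 7 called lower and 2 higher (all genes 14.3% higher and 13.1% lower), and of -0.073 for EpA+fato against DMSO+fato, with 10 called lower and 3 higher (all genes 16.2% higher and 13.3% lower).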

How the data were processed

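Total RNA of 12 Th9 cell samples (4 groups of 3) was sequenced after TruSeq library preparation. Per the study's methods, the authors used Trim Galore for trimming, HISAT2 for alignment (build GRCm38), and featureCounts for counting, and they deposited FPKM, which scale the reads of a gene by its exon length and by the reads of its library. The authors' own testing used DESeq2 on counts that were not used here. The strand setting, the annotation release, and the treatment of reads with several matches are not given in the sources used here. EpA and fatostatin concentrations come from the study's methods, and groups come from the labels. The table has 32352 lines for 32051 genes, 301 of which repeat a gene with the same values and were dropped, and 0 columns belong to no sample.

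FPKM times the exon length (GENCODE M21, 32003 genes) were whole multiples of what 1 read is worth for 98.4 to 98.6% of values (within 0.05 of a read), which gave the reads per gene and the depth. Values of log2(FPKM + 0.1) of the 13733 genes that averaged 0.1 FPKM or more were fitted with limma 3.58.1 in R 4.3.3 (4 group means, intensity trend, two-sided tests), Benjamini-Hochberg adjusted over all tested genes, and called at an adjusted p below 0.05. Fold changes are on this scale, which understates those of low genes. With 3 replicates against 3, an exact permutation test of a single value cannot go below 0.1, so none is given. Copies were found with blastn 2.17.0 among GENCODE transcripts, and promoter sequence is that of RefSeq (GRCm38.p6). Alternatives were other pseudocounts, filters, and scalings, voom (limma) on the recovered reads, the replicate number as a block, fold thresholds, each library left out, and 3 added after seeing the data (reads of copies added, all replicates 1 left out, the 3 genes with the most exon overlap left out).

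Genes were named by role, together with, for each comparison, the 5 largest changes in each direction among genes that passed without overlap of the groups, the 3 highest and 5 lowest in DMSO, the 5 smallest p of the interaction, and, of the other lists, the 2 largest changes in each direction with EpA. The members and the gene lists were chosen with earlier results of these data known. A few genes are not reported here by name, although the counts and medians include them.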

Additional observations from a re-analysis of the deposited data

Results flagged for a closer look

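*Rpl17* was singled out because its libraries moved in opposite directions with fatostatin. Without EpA, every DMSO+fato library lay above every DMSO library (714, 724 and 737 FPKM against 711, 669 and 686), and with EpA every EpA+fato library lay below every EpA library (595, 656 and 657 against 673, 661 and 677). The difference of both log2 fold changes was -0.15 ± 0.051 (SE), with an unadjusted p of 0.0122 in the limma fit and an adjusted p of 0.473, so the test of the difference was not passed. The lowest value belongs to replicate 1 of EpA+fato, which was low for most ribosomal protein genes, and 16.5% of the reads of *Rpl17* and its copies fell on the copies.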

How the results depend on the processing

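In both comparisons of EpA with its control, the median of the 77 genes stayed negative under every alternative run. Of the 17 genes called for EpA against DMSO, 11 kept their call under all 25 alternatives other than the fold thresholds, and of the 19 called for EpA+fato against DMSO+fato, 12 did. No gene named as called changed direction. The causes of the changes below were not tested.

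For EpA against DMSO, 2 genes instead of 1 were higher with a pseudocount of 0.01, a filter at 1 FPKM, FPKM scaled to equal sums or to totals without the 77 genes, only the groups compared, voom, and without all replicates 1, and 0 were higher or lower with a fold of at least 1.2 or 1.5. Instead of 16, 24 were lower with voom, 21 with only the groups compared, 20 with either of those scalings, 12 with no filter, and 11 with no intensity trend. Over all genes, the 1801 called lower became 1982 with voom, 1655 with only the groups compared, and 1714 and 1866 with those scalings. They became 1643 of 20828 with no filter and 1690 with no intensity trend. For DMSO+fato against DMSO, 3 were higher with either of those scalings, 4 with voom, and 2 without all replicates 1, where the median log2 fold change was 0.032, and 1 was lower with only the groups compared and with voom. For EpA+fato against EpA, 2 were lower with a pseudocount of 1 or the filter at 1 FPKM, 4 with median ratio scaling, 6 with voom, and 0 with no filter, only the groups compared, no intensity trend, either fold, or without all replicates 1, where 3 were higher. For EpA+fato against DMSO+fato, 2 were higher with the filter at 1 FPKM or either scaling and 0 with no filter, a fold of 1.5, or without the 3 genes of most exon overlap, while 29 were lower with totals without the 77 genes, 31 with voom, and 0 with either fold.

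Leaving out single libraries gave 1 to 2 higher and 10 to 19 lower (median -0.059 to -0.036) for EpA against DMSO, 0 to 2 and 0 to 1 (-0.017 to 0.017) for DMSO+fato against DMSO, 0 to 3 and 0 to 2 (-0.033 to 0.013) for EpA+fato against EpA, 0 to 2 and 14 to 26 (-0.075 to -0.023) for EpA+fato against DMSO+fato, and 0 for the interaction (-0.035 to 0.014).

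Deviations from the group means, over all tested genes, correlated at -0.047 to 0.074 over 18 pairs of libraries of the same replicate number. Over 36 other pairs they correlated at -0.086 to 0.049, and 7 of 12 libraries were closest to their own number. These weak correlations do not settle whether the replicate numbers pair the samples. With the replicate number as a block, 1 gene was higher for DMSO+fato against DMSO and 0 for EpA+fato against DMSO+fato. Depth limits *Rpl24* and *Rps10*, which had at most 69 and 235 reads.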
